A study of Mus musculus with 12 samples.

Results

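The genes described here are the 4 receptors of the epidermal growth factor family (Egfr, Erbb2, Erbb3 and Erbb4), 3 of their ligands (Hbegf, Areg and Nrg1), the receptor Met with its ligand Hgf, and the receptor Axl. They were picked by name, not by their values, and are 10 of 37750 rows of the deposited table. Each of the 10 had a row of its own. RNA was measured in 8 liposarcomas (LPS) from Ad/NICD mice 9, 10, 11 or 12 months old, and in 4 samples of white adipose tissue (WAT) from Ad/NICD mice 3 weeks old. All animals were 129 x C57BL/6, and all carry the active Notch1 intracellular domain in adipocytes, so no library comes from mice without the transgene. The labels do not name the promoter that drives it. The submitters describe the libraries as biological replicates. The tumours come from much older animals than the fat, so the effects of age and of tissue cannot be told apart. In bulk samples, fewer cells of a type and less RNA per cell cannot be told apart either.

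Receptors of the EGF family are tyrosine kinases that work in pairs: a ligand outside the cell brings receptors together, and the paired kinases switch on the RAS-ERK and PI3K-AKT pathways. ERBB2 binds no ligand of its own and ERBB3 has a weak kinase, so each relies on a partner. MET is the receptor for hepatocyte growth factor, which mesenchymal cells secrete in an inactive form and proteases activate. AXL belongs with TYRO3 and MERTK to the TAM receptors, which bind GAS6 and protein S and serve in the clearance of dead cells and in tumour growth.

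The values are FPKM, fragment counts divided by transcript length and by the library's mapped fragments, so levels of different genes can be set side by side. FPKM sums ran from 771665 to 996090 per library, and 12965 to 14248 rows reached 1 FPKM. One fragment of a transcript of 2000 bases was worth an estimated 0.0188 to 0.0477 FPKM. LPS 5 stood apart: the predicted gene Gm10800 took 361556 FPKM there, against at most 3340 FPKM elsewhere, and its other rows read low, at a median of 0.814 times the geometric mean of each row (0.991 to 1.06 times in the other libraries). The tissue labels were checked against markers. Mature adipocyte markers summed to 121 to 2166 FPKM in LPS and 12561 to 15077 FPKM in WAT. Of these markers, 12 of 12 were lower in LPS, against 27.0% of all rows tested. Pericyte markers summed to 3691 to 8175 FPKM in LPS and 236 to 253 FPKM in WAT. Skeletal muscle markers summed to 12.7 to 495 FPKM in LPS, and in WAT to 1719, 22.2, 222 and 1499 FPKM in WAT 1 to WAT 4.

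Of the 10 genes, Hbegf rose and Met fell in the tumours, and the other 5 that could be tested gave no call. A row was tested if it reached 1 FPKM in at least 4 libraries. Of the 10 genes, 7 passed, and Erbb4, Areg and Nrg1 did not. The test was limma on log2(FPKM + 1), two-sided, with Benjamini-Hochberg adjustment over all 14821 rows tested and a threshold of 0.05. It called 1 of the 7 genes higher and 1 lower, against 18.9% of all rows higher and 27.0% lower (46.0% called in all). The most abundant of the 10 in both groups was Axl, followed by Egfr.

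**Figure D1:**
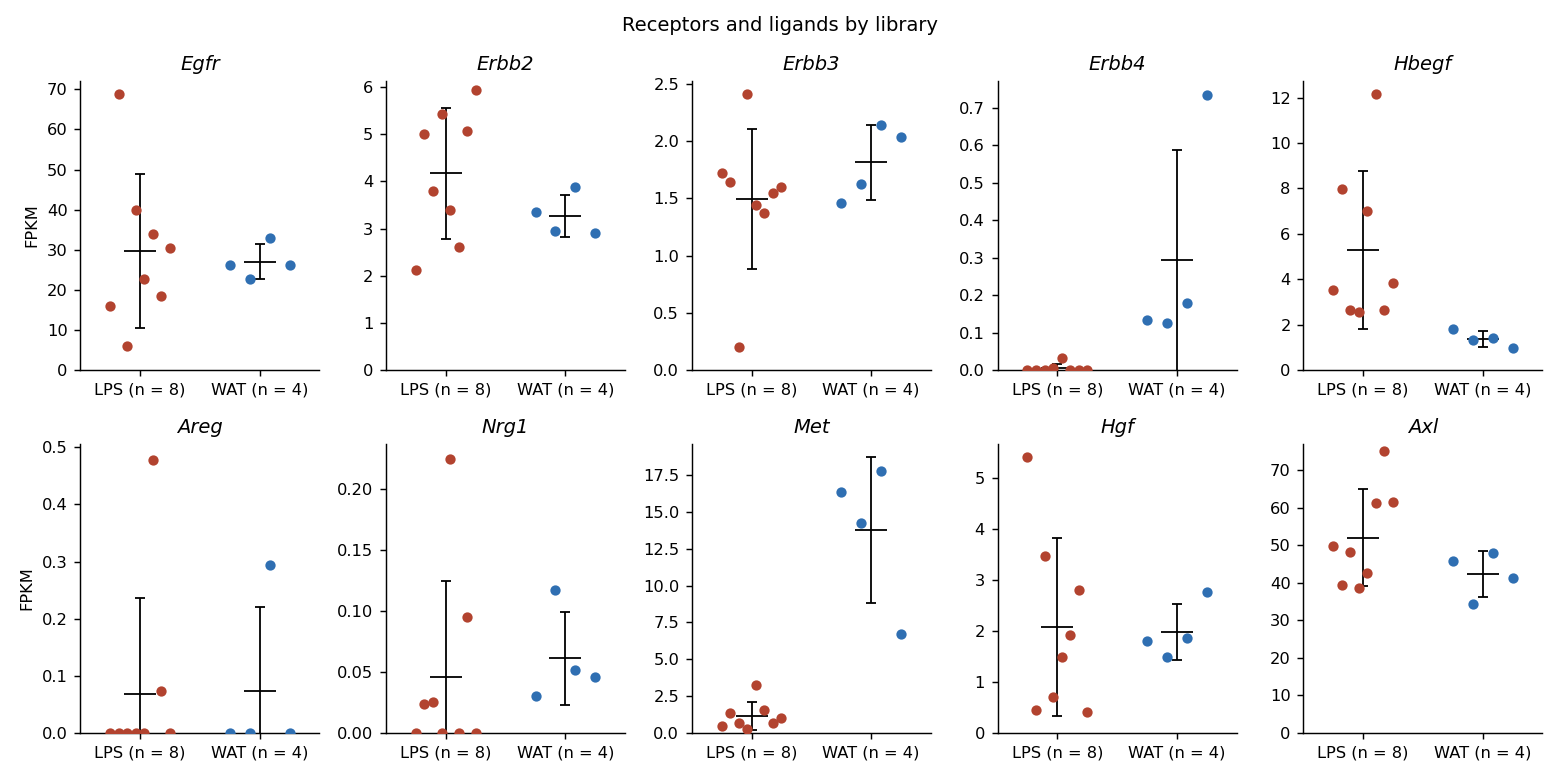
FPKM of the 10 genes in each library (LPS, 8 points; WAT, 4 points), with the mean as a horizontal bar and the SD as a vertical line cut off at 0; each panel has its own linear axis. Hbegf lies higher and Met and Erbb4 lie lower in every LPS library than in any WAT library, and the other 7 genes overlap.

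**Figure D2:**
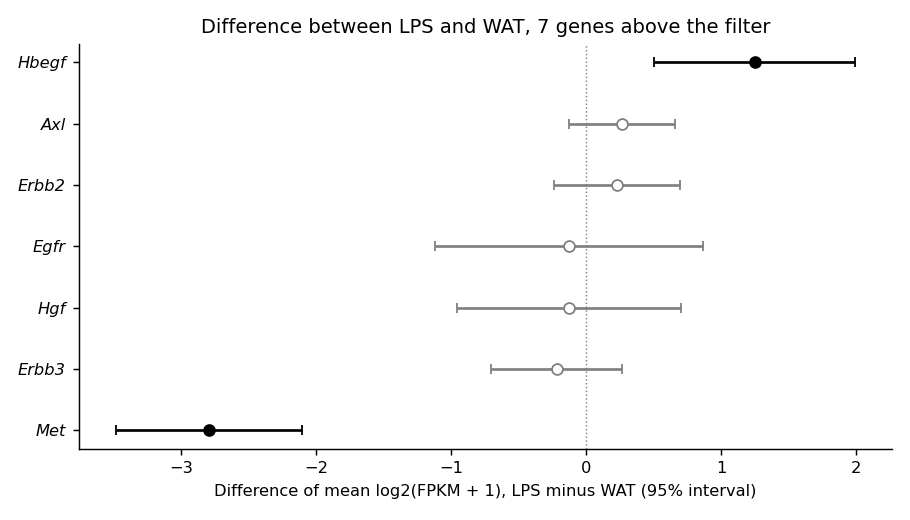
Difference of mean log2(FPKM + 1), LPS minus WAT, with its 95% interval from limma for the 7 genes above the filter; filled points have an adjusted p below 0.05. Hbegf lies at 1.25 and Met at -2.80, and the intervals of the other 5 genes include 0.

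Among the EGF family receptors, the mean levels of Egfr, Erbb2 and Erbb3 differed between tumours and fat by less than the test could call. Egfr, and Erbb3 through LPS 3, ranged far more widely among the 8 tumours than among the 4 WAT libraries. Egfr, the receptor for EGF, HB-EGF and amphiregulin (GRCm38, chr11:16752203-16918158), measured 16.0, 68.9, 6.02, 39.8, 22.8, 34.0, 18.6 and 30.6 FPKM in LPS 1 to LPS 8, and 26.1, 22.6, 33.1 and 26.2 FPKM in WAT 1 to WAT 4. LPS 2 was the highest and LPS 3 the lowest of all 12 libraries, and the groups overlapped. The highest tumour had 11.5-fold the level of the lowest, against 1.46-fold among WAT libraries. Means were 29.6 ± 19.2 FPKM in LPS and 27.0 ± 4.38 FPKM in WAT (SD, n = 8 and n = 4). The log2 difference was -0.13 ± 0.46 (SE), with a 95% interval of -1.12 to 0.87 (limma adjusted p = 0.843).

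Since Egfr gave most of the receptor transcripts, its upstream sequence is shown: 250 bases before the start that RefSeq gives, on the plus strand, with the GC box that a script found in capitals (CCGCCC, which reads GGGCGG on the other strand).
Egfr chr11:16751953-16752202: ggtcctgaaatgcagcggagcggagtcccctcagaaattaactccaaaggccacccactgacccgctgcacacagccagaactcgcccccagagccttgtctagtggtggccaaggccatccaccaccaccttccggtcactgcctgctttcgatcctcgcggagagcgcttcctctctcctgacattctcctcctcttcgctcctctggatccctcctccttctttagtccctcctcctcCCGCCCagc
GGGCGG, searched on both strands, occurs in 35.7% of the 32851 RefSeq promoter windows of 300 bases (250 before to 50 after the start, build GRCm38.p6). In the 300-base windows of Erbb2 and Erbb4 none of the 4 motifs searched was found, and the table of windows was matched for 7 of the 10 genes.

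Erbb2, the partner receptor without a ligand (chr11:98412470-98439046), measured 2.12, 5.01, 3.81, 5.43, 3.40, 2.60, 5.07 and 5.94 FPKM in LPS 1 to LPS 8, and 3.35, 2.96, 3.87 and 2.91 FPKM in WAT 1 to WAT 4. LPS 1 and LPS 6 lay below all WAT libraries and LPS 2, LPS 4, LPS 7 and LPS 8 above them. Its log2 difference was 0.23 ± 0.22 (95% interval -0.24 to 0.70; limma adjusted p = 0.408). Erbb3, the neuregulin receptor with the weak kinase (chr10:128567523-128589652), measured 1.72, 1.64, 0.200, 2.41, 1.45, 1.37, 1.55 and 1.60 FPKM in LPS 1 to LPS 8, and 1.46, 1.62, 2.14 and 2.04 FPKM in WAT 1 to WAT 4. LPS 3 lay apart, and the other 7 tumours spanned the WAT values. With LPS 3, the highest tumour had 12.1-fold the Erbb3 level of the lowest, against 1.47-fold among WAT libraries. The log2 difference of Erbb3 was -0.22 ± 0.23 (95% interval -0.71 to 0.27; limma adjusted p = 0.456). Erbb3 is also a receptor of Schwann cells, whose markers summed to 27.9 to 110 FPKM in LPS and 268 to 361 FPKM in WAT. Of 11 tested Schwann markers, 9 were lower and 1 (Ngfr) higher in LPS, against 27.0% lower and 18.9% higher over all rows. The part of Schwann cells in the level of Erbb3 was not tested.

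Erbb4, the other neuregulin receptor with an active kinase (chr1:68032186-69108059), was listed at or near 0 in the tumours and low in fat. It was listed at 0 in 6 tumours and at 0.00607 and 0.0334 FPKM in LPS 4 and LPS 5, against 0.134, 0.126, 0.180 and 0.735 FPKM in WAT 1 to WAT 4. The groups did not overlap, as was so in this direction for 20.9% of the rows tested, which do not include Erbb4. No library of either group reached 1 FPKM. The mean of log2(FPKM + 1) was 0.34 lower in LPS, written as a difference of -0.34, with p = 0.00404 in an exact two-sided permutation test over 495 label assignments. That is the smallest p the design allows. In the fit with no filter on low values, where all rows above 0 in any library are tested, Erbb4 had a limma adjusted p = 0.0153. The size of the difference leaned on WAT 4, the highest library: it was -0.19 without WAT 4 and -0.20 without WAT 1 and WAT 4, the libraries with the most skeletal muscle marker RNA. WAT 1, with the higher muscle marker sum of the pair, held 0.134 FPKM of Erbb4. The part of muscle in the level of Erbb4 was not tested.

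The summed level of the 4 receptors was 10.0 to 75.6 FPKM in LPS and 27.3 to 39.3 FPKM in WAT. Egfr made up 80.2 ± 9.80% of it in LPS and 83.3 ± 1.00% in WAT (SD, n = 8 and n = 4). Among tumours that share ran from 60.0% in LPS 3 to 91.2% in LPS 2, whereas in WAT it lay between 82.2% and 84.2%. Erbb2 filled most of the rest, up to 38.0% in LPS 3.

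**Figure D3:**
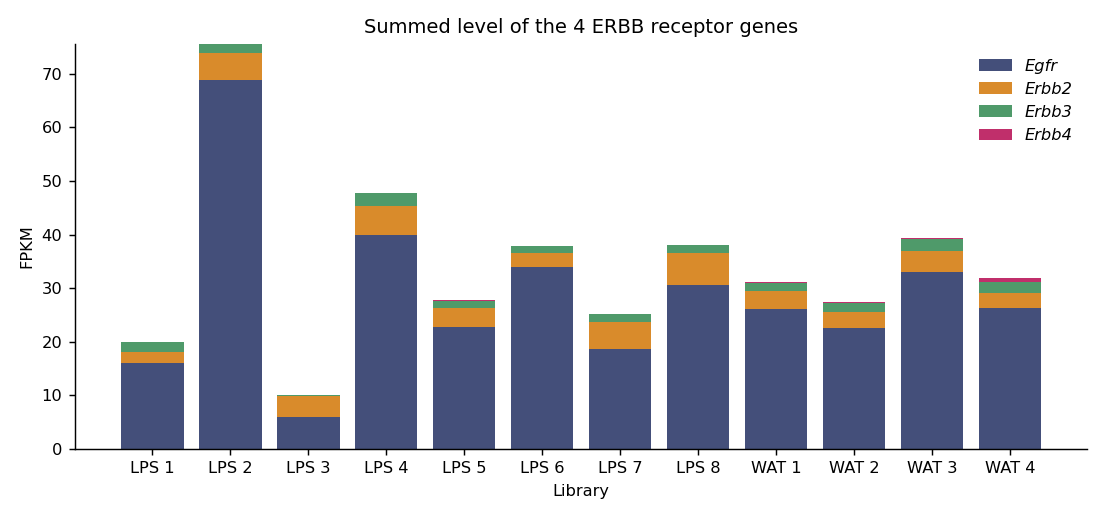
Summed FPKM of Egfr, Erbb2, Erbb3 and Erbb4 in each library, stacked by gene on a linear axis. Egfr is the largest part of every bar, and LPS 2 (75.6 FPKM) and LPS 3 (10.0 FPKM) lie above and below all other libraries.

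Of the 3 ligand genes for these receptors that were picked, Hbegf rose in the tumours, and Areg and Nrg1 were near 0 in both groups. Hbegf encodes heparin-binding EGF-like growth factor, a membrane-bound ligand of EGFR and ERBB4 (chr18:36504929-36515805). It measured 3.53, 7.97, 2.65, 2.54, 7.00, 12.2, 2.65 and 3.85 FPKM in LPS 1 to LPS 8, and 1.82, 1.32, 1.40 and 0.961 FPKM in WAT 1 to WAT 4. Every tumour lay above every WAT library, which was so for 11.8% of all rows tested (32.6% had no overlap in one direction or the other). The lowest tumour, LPS 4, was close to the highest WAT library, WAT 1. Means were 5.29 ± 3.47 FPKM in LPS and 1.38 ± 0.351 FPKM in WAT (SD, n = 8 and n = 4), a ratio of 3.85. The log2 difference was 1.25 ± 0.34 (95% interval 0.51 to 2.00; limma adjusted p = 0.00971). Without WAT 1 and WAT 4, the libraries with the most skeletal muscle marker RNA, the adjusted p was 0.0748 at a log2 difference of 1.25, and Hbegf was not called. It was called under the other 21 alternatives, with adjusted p from 0.00214, and at 0.0167 without LPS 5.

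Areg, amphiregulin, a ligand of EGFR (chr5:91139615-91148432), was listed at 0 in 6 tumours and at 0.478 and 0.0734 FPKM in LPS 6 and LPS 7. In WAT it was listed at 0 in 3 libraries and at 0.294 FPKM in WAT 3. The exact two-sided permutation test gave p = 1. Nrg1, neuregulin 1, a ligand of ERBB3 and ERBB4, measured 0 to 0.224 FPKM in LPS, with 4 tumours listed at 0, and 0.0303 to 0.117 FPKM in WAT (exact two-sided permutation p = 0.655). Its row (chr8:31818028-31918203) covers only 9.37% of the Nrg1 span in GENCODE M21, so transcripts that start outside it may be missed.

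The other ligand genes of the family were low or fell. Of 8 further EGF family ligands, 2 passed the filter and both were lower in LPS, against 27.0% of all rows lower. Their median log2 difference was -2.91, against -0.05 over all rows. With 2 genes the count says little about the list. Nrg4, neuregulin 4, a ligand of ERBB4 that fat tissue secretes, had 1.21, 0.914, 1.20, 1.30, 1.30, 0.979, 1.79 and 1.55 FPKM in LPS 1 to LPS 8, and 53.0, 64.8, 60.6 and 30.4 FPKM in WAT 1 to WAT 4. The groups lay far apart, and WAT 4 was the lowest of the fat samples. The log2 difference of Nrg4 was -4.50 ± 0.19 (limma adjusted p = 1.02e-09). Btc, betacellulin, a ligand of EGFR and ERBB4, averaged 0.132 ± 0.119 FPKM in LPS and 1.82 ± 0.409 FPKM in WAT (SD, n = 8 and n = 4; log2 difference -1.31, limma adjusted p = 2.67e-06). Btc reached at most 0.369 FPKM in LPS and passed the filter through the WAT libraries alone. The filter thus favoured a lower value of Btc in LPS, and its call adds little to the list's count and median. Of the ligands under the filter, Tgfa reached at most 0.172 FPKM in LPS and 1.26 FPKM in WAT, and Egf at most 0.303 FPKM in LPS and 1.01 FPKM in WAT. These 2 genes are named for completeness, after their values were seen. The 8 genes summed to 1.31 to 2.48 FPKM in LPS and 35.0 to 68.8 FPKM in WAT.

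Ligands such as HB-EGF are cut from the cell surface by ADAM proteases, which the rhomboid-like proteins RHBDF1 and RHBDF2 help to mature and TIMP3 inhibits. Of 9 tested genes of shedding and trafficking (10 in the list), 3 were higher and none lower, with a median log2 difference of 0.52, against 18.9% higher and 27.0% lower over all rows. Rhbdf1 rose to 69.9 ± 27.7 FPKM in LPS, against 23.4 ± 1.15 FPKM in WAT (log2 difference 1.44, limma adjusted p = 0.000644), and the groups did not overlap. Rhbdf2 averaged 13.5 FPKM in LPS and 7.57 FPKM in WAT (log2 difference 0.69, limma adjusted p = 0.0385). Its call was lost without LPS 2, LPS 4, LPS 8, WAT 1, WAT 3 or WAT 4, without WAT 1 and WAT 4 together and with no filter, with an adjusted p up to 0.194. Timp3 averaged 267 ± 317 FPKM in LPS and 65.0 ± 5.38 FPKM in WAT and was not called (log2 difference 1.33, limma adjusted p = 0.114). LPS 7 alone held 983 FPKM of Timp3. The count of 3 higher was 5 without LPS 5 and 1 without WAT 1 and WAT 4.

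Met fell in the tumours by the largest amount among the 7 tested genes. Met (chr6:17463800-17573980) measured 0.439, 1.33, 0.676, 0.293, 3.27, 1.55, 0.699 and 1.01 FPKM in LPS 1 to LPS 8, and 16.4, 14.2, 17.8 and 6.72 FPKM in WAT 1 to WAT 4. Every tumour lay below every WAT library, which was so for 20.9% of all rows. LPS 5 was the highest tumour and WAT 4 the lowest fat sample. Means were 1.16 ± 0.956 FPKM in LPS and 13.8 ± 4.92 FPKM in WAT (SD, n = 8 and n = 4), so WAT held 11.9-fold the LPS level. The log2 difference was -2.80 ± 0.32 (95% interval -3.49 to -2.11; limma adjusted p = 1.06e-05). Without LPS 5, the library with the Gm10800 excess, it was -2.95 (limma adjusted p = 2.77e-06), and without WAT 1 and WAT 4 it was -3.07 (adjusted p = 0.000134). By mean level among 19273 protein-coding names, Met stood at rank 10555 in LPS and 4522 in WAT.

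MET is best known from epithelia, and its fall was set beside epithelial and adipocyte markers. The 13 epithelial markers summed to 1.84 to 5.43 FPKM in LPS and 3.43, 3.19, 20.1 and 6.97 FPKM in WAT 1 to WAT 4. Of them 1 (Grhl2) passed the filter, and it was higher in LPS (log2 difference 1.03, limma adjusted p = 0.00076). Over all rows 18.9% were higher. Epcam and Cdh1, 2 defining ones, reached at most 0.222 and 0.416 FPKM in LPS and 2.47 and 1.22 FPKM in WAT, with WAT 3 the highest in both. The tumour sums came largely from Grhl2 and Cldn7, and Krt19 measured 0 to 0.187 FPKM in LPS and 0.967 to 4.59 FPKM in WAT. The part of epithelial cells in the level of Met was not tested. The sum of the mature adipocyte markers given above parted the groups as Met did. Of these markers, 11 of 12 lay below all WAT libraries, against 20.9% of all rows. The sums of fibroblast and progenitor, lymphocyte and Schwann cell markers also lay lower in every LPS library than in any WAT library. Those of pericyte and macrophage markers lay higher. The part of any of these cell types in the fall of Met was not tested. Among the tumours the markers did not share one order. Adipoq (4.26 FPKM), Cidec (1.76 FPKM), Cfd (27.2 FPKM) and Retn (0.459 FPKM) were all highest in LPS 5, the tumour with the most Met. The 12 markers together summed to 182 FPKM in LPS 5. In LPS 1, LPS 3 and LPS 7 they summed to 2166, 1346 and 1226 FPKM. Not every marker is given by tumour here. Fabp4, which made up most of the marker sum in LPS 1, LPS 3 and LPS 7, was highest in these 3 tumours, which held 0.439 to 0.699 FPKM of Met.

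The stretches of the Met promoter window that hold 3 of the motifs searched are shown, since all the mice carry active Notch1, whose partner RBPJ binds DNA at the core TGGGAA. The other motifs are the E-box CACGTG and the AP-1 site TGANTCA. Each stretch is 30 bases on the plus strand of GRCm38.p6, from RefSeq, with the motif in capitals.
Met TGGGAA chr6:17463918-17463947: gcagggcgcgtgTGGGAAggggcggagcag
Met CACGTG chr6:17463819-17463848: gggacgaacagaCACGTGctggggcgggta
Met TGANTCA chr6:17463891-17463920: ctgttgcccggcTGAGTCAcgggccgggca
The stretches begin 39, 138 and 66 bases before the RefSeq start, in the order printed, and lie inside the longer Met span that GENCODE gives. Searched on both strands, TGGGAA occurs in 25.6% of all 32851 windows, CACGTG in 7.15% and TGANTCA in 7.81%. TGGGAA was also found in the windows of Areg and Hgf, and GGGCGG 3 times in that of Met, 2 of them in the stretches above in lower case. No motif shares a base with another in these stretches. A match is a run of letters and was not tested as a binding site.

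The rows next to Met on chromosome 6, looked up after their values were seen, did not all move with it. Cav1 and Cav2, caveolae genes of adipocytes and endothelium whose shared locus ends 78.2 kb away, measured 33.0 to 91.3 and 13.1 to 29.9 FPKM in LPS, and 502 to 633 and 98.4 to 151 FPKM in WAT. Both fell, with log2 differences of -3.39 and -2.69 (limma adjusted p = 6.93e-07 and 7.64e-08). Capza2, an actin capping gene 62.3 kb away on the other side, measured 70.1 to 99.8 FPKM in LPS and 60.6 to 63.1 FPKM in WAT (log2 difference 0.34, limma adjusted p = 0.0165).

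Hgf, the ligand of MET (chr5:16553550-16619439), did not differ in mean but spread widely among tumours. It measured 5.42, 0.444, 3.47, 0.707, 1.48, 1.92, 2.80 and 0.418 FPKM in LPS 1 to LPS 8, and 1.80, 1.49, 1.85 and 2.77 FPKM in WAT 1 to WAT 4. LPS 1, LPS 3 and LPS 7 lay above all WAT libraries, LPS 2, LPS 4 and LPS 8 well below them, and the tumours spanned a 13.0-fold range. The log2 difference was -0.13 ± 0.38 (95% interval -0.96 to 0.70; limma adjusted p = 0.808). The 3 tumours with the most Hgf were the 3 with the least Egfr. Macrophages and stromal cells are among the known sources of HGF. Macrophage markers summed to 833, 279, 382, 259, 417, 631, 776 and 226 FPKM in LPS 1 to LPS 8 and 194 to 221 FPKM in WAT. Of 11 tested, 6 were higher and 1 lower, against 18.9% higher and 27.0% lower over all rows. The part of macrophages in the spread of Hgf was not tested.

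With Met lower and Hgf not called, the ratio of Met to Hgf was 0.0810 to 2.99 in LPS and 9.10, 9.56, 9.59 and 2.43 in WAT, where the last value is that of WAT 4. The ratio in WAT 4 lay below that of the LPS library with the highest ratio, LPS 2. Of 11 tested genes that activate HGF or partner MET (19 in the list), 3 were higher and 3 lower, with a median log2 difference of -0.01. The count lies near the background of 18.9% higher and 27.0% lower over all rows. Plat, tissue plasminogen activator, a protease, rose to 82.3 ± 42.0 FPKM in LPS, against 8.02 ± 1.78 FPKM in WAT (log2 difference 3.06, limma adjusted p = 1.43e-05). Plxnb2, a plexin that can pair with MET, averaged 88.5 ± 20.3 FPKM in LPS and 14.4 ± 2.87 FPKM in WAT (log2 difference 2.52, limma adjusted p = 1.94e-07). Spint2, an inhibitor of HGF-activating proteases, fell to 0.599 ± 0.512 FPKM in LPS, against 7.58 ± 0.492 FPKM in WAT (log2 difference -2.48, limma adjusted p = 9.50e-07). Mst1r, which encodes RON, the receptor most like MET, measured 0 to 0.246 FPKM in LPS and 3.36 to 4.26 FPKM in WAT (log2 difference -2.13, limma adjusted p = 1.19e-08), with LPS 1 and LPS 6 listed at 0. Mst1r passed the filter through the WAT libraries alone, so the filter favoured a lower value in LPS. Itga6, an integrin, was not called, at 37.5 FPKM in LPS and 44.6 FPKM in WAT.

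Axl was abundant in tumours and fat alike, at rank 871 of protein-coding names in LPS and 1260 in WAT. Axl (chr7:25757273-25788705) measured 49.7, 39.3, 48.3, 38.7, 42.5, 61.3, 75.0 and 61.5 FPKM in LPS 1 to LPS 8, and 45.9, 34.2, 48.0 and 41.3 FPKM in WAT 1 to WAT 4. LPS 6, LPS 7 and LPS 8 lay clearly above all WAT libraries, and the other 5 overlapped them or lay just above. Means were 52.0 ± 12.8 FPKM in LPS and 42.3 ± 6.10 FPKM in WAT (SD, n = 8 and n = 4). The log2 difference of Axl was 0.27 ± 0.18 (95% interval -0.12 to 0.66; limma adjusted p = 0.247).

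Around Axl, 5 of 7 TAM receptors and ligands were tested, of which 2 were higher and 1 lower, with a median log2 difference of 0.35. Over all rows 18.9% were higher and 27.0% lower, and with so few genes the count says little about the list. Pros1, the ligand protein S, rose to 41.5 ± 15.9 FPKM in LPS, against 17.4 ± 1.08 FPKM in WAT (log2 difference 1.11, limma adjusted p = 0.00622). Mertk, a receptor that is also on the list of macrophage markers, averaged 12.7 FPKM in LPS and 6.11 FPKM in WAT (log2 difference 0.85, limma adjusted p = 0.0289). Gas6, the ligand that AXL binds, fell to 11.0 ± 5.87 FPKM in LPS, against 23.8 ± 3.03 FPKM in WAT (log2 difference -1.22, limma adjusted p = 0.0226). The calls of Mertk and Gas6 depended on single libraries, while their log2 differences changed little. Pros1 was called under 21 of 22 alternatives. Mertk was not called without any one of WAT 1, WAT 2, WAT 3 or WAT 4 (log2 differences 0.80 to 0.89, limma adjusted p = 0.0522, 0.0745, 0.0654 and 0.0600). Gas6 was not called without WAT 3 or WAT 4 (log2 differences -1.16 and -1.19, limma adjusted p = 0.0624 and 0.0587), and without WAT 1 and WAT 4 none of the 3 was (limma adjusted p = 0.0689 for Pros1, 0.114 for Mertk and 0.120 for Gas6). The list held 1 higher and 1 lower without WAT 1 or WAT 2, 1 higher and 0 lower without WAT 3 or WAT 4, and 0 higher and 0 lower without WAT 1 and WAT 4.

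Downstream of the receptors, several signalling, feedback and ERK response genes rose, while Egfr, Erbb2, Erbb3, Hgf and Axl were not called. Over all 7 lists of genes around the receptors, 91 of 109 were tested, of which 34 were higher and 12 lower, with a median log2 difference of 0.43. Over all rows 18.9% were higher and 27.0% lower, with a median of -0.05. With quantile normalization 45 of the 91 were higher and 12 lower, against 4082 and 3459 of all 14821 rows tested. These pathways also serve other receptors, and which receptor drives them is not measured here.

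Of 26 adaptor and kinase genes, all tested, 10 were higher and 5 lower (median 0.17), against 18.9% higher and 27.0% lower over all rows. Src, a kinase that EGFR and MET can engage, measured 23.2 to 84.1 FPKM in LPS, lowest in LPS 5, and 4.88 to 5.83 FPKM in WAT. Its means of 61.7 ± 19.0 FPKM in LPS and 5.38 ± 0.390 FPKM in WAT differed 11.5-fold (log2 difference 3.22 ± 0.27, limma adjusted p = 6.82e-07). Gab1, a docking protein of MET and EGFR, averaged 24.1 ± 12.8 FPKM in LPS and 5.48 ± 1.39 FPKM in WAT (log2 difference 1.83, limma adjusted p = 0.000444). Akt2, the AKT kinase of insulin-responsive tissue, fell to 22.5 ± 4.70 FPKM in LPS, against 89.2 ± 8.88 FPKM in WAT (log2 difference -1.97, limma adjusted p = 1.13e-06). Pik3cb, a catalytic subunit of PI3K, averaged 3.83 FPKM in LPS and 8.10 FPKM in WAT (log2 difference -0.93, limma adjusted p = 0.00371). Pik3r1, the regulatory subunit, was not called at 75.7 FPKM in LPS and 81.1 FPKM in WAT. Without WAT 1 and WAT 4 the list held 8 higher and 2 lower.

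Of 23 negative regulators of ERBB and MET signalling, all tested, 9 were higher and 1 lower (median 0.43), against 18.9% higher and 27.0% lower over all rows. Spry4, a Sprouty protein that feeds back on RAS-ERK signalling, measured 40.1 to 142 FPKM in LPS, highest in LPS 3, and 6.25 to 9.96 FPKM in WAT (log2 difference 3.02 ± 0.29, limma adjusted p = 2.16e-06). Errfi1, which encodes MIG6, an inhibitor that binds the EGFR kinase, measured 65.3, 151, 29.1, 456, 72.5, 182, 167 and 122 FPKM in LPS 1 to LPS 8, and 20.4, 19.99, 26.4 and 25.3 FPKM in WAT 1 to WAT 4. All tumours lay above all WAT libraries, LPS 3 by little and LPS 4 by far (log2 difference 2.31 ± 0.54, limma adjusted p = 0.00360). LPS 3 was also the tumour with the least Egfr. Lrig3, of a family of transmembrane proteins of which LRIG1 restrains ERBB receptors, fell to 1.13 FPKM in LPS, against 3.29 FPKM in WAT (log2 difference -1.03, limma adjusted p = 7.16e-05). Lrig1 itself was not called at 21.9 FPKM in LPS and 18.6 FPKM in WAT. Without LPS 6 or LPS 7 there were 2 lower.

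Of 15 tested genes that respond to ERK signalling (16 in the list), 7 were higher and none lower, with a median log2 difference of 1.12, against 18.9% higher and 27.0% lower over all rows. Etv5 and Etv1, ETS factors that ERK signalling induces, averaged 15.03 ± 6.09 and 10.7 ± 5.72 FPKM in LPS, and 2.44 ± 0.331 and 1.51 ± 0.193 FPKM in WAT (log2 differences 2.12 and 2.06, limma adjusted p = 7.19e-05 and 0.000343). Junb, an AP-1 subunit and immediate early gene, was not called (log2 difference 1.25, limma adjusted p = 0.151). LPS 6 held 296 FPKM of it and the other tumours 10.0 to 47.0 FPKM, against 12.2 to 17.0 FPKM in WAT. Without LPS 6 the ERK list held 1 lower.

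**Figure D4:**
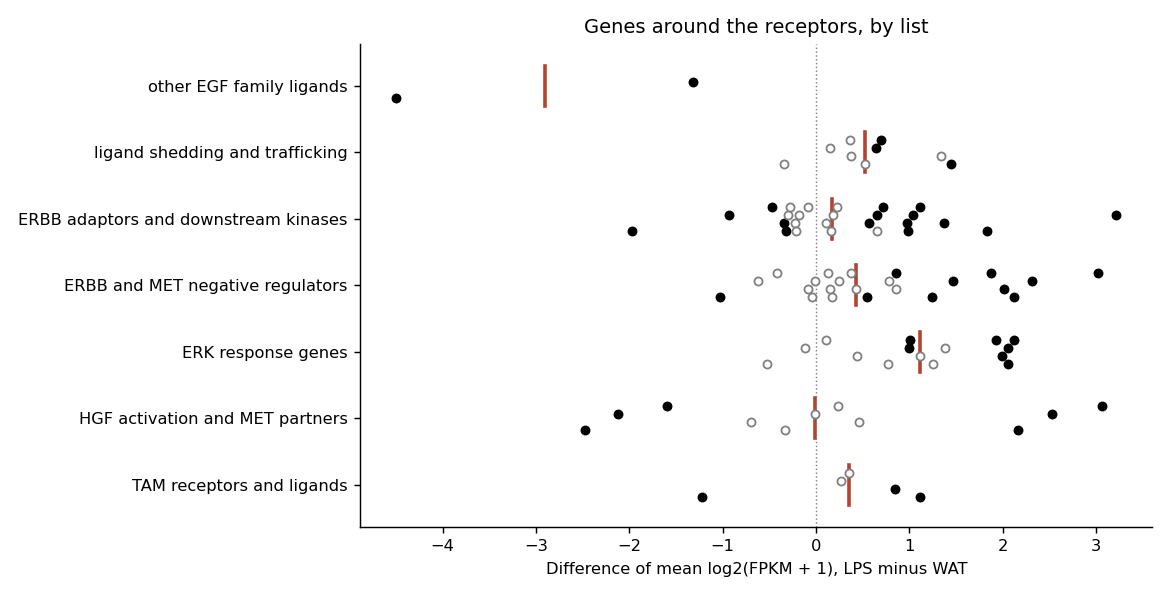
Difference of mean log2(FPKM + 1), LPS minus WAT, for each tested gene of the 7 lists; filled points have a limma adjusted p below 0.05, open points do not, and the red bar is the list's median. Medians run from -2.91 for the other EGF family ligands (2 genes) to 1.12 for the ERK response genes (15 genes).

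**Figure D5:**
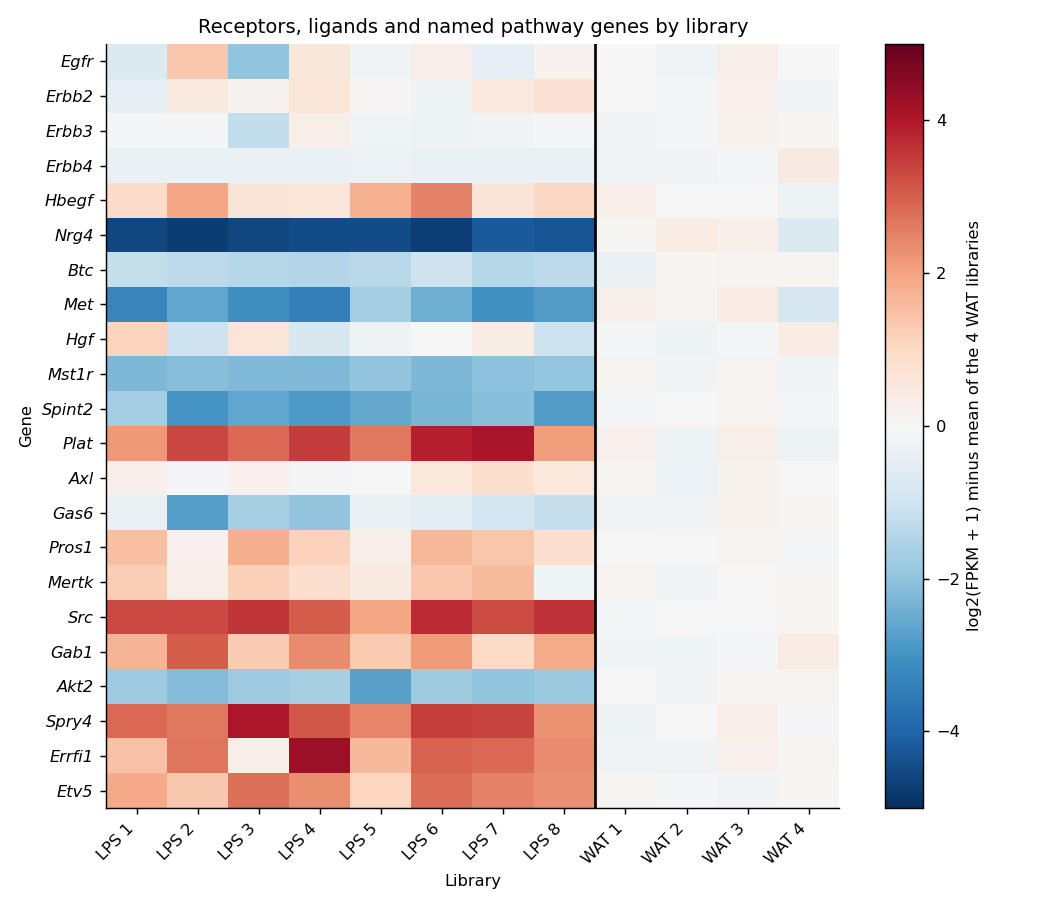
log2(FPKM + 1) minus the mean of the 4 WAT libraries for 22 of the named genes (rows) in each library (columns, LPS left of the black line); red is above and blue below the WAT mean. Nrg4, Met, Mst1r, Spint2 and Akt2 are blue in all 8 LPS columns, Src and Spry4 are red in all 8, and Egfr and Hgf change colour from tumour to tumour.

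Within LPS, age was tested as a slope of log2(FPKM + 1) per month over 13280 rows. No row was called in either direction (0%), and 228 had an unadjusted p below 0.05. Hbegf had the steepest slope of the 7 tested genes, -0.46 ± 0.18 per month (limma, unadjusted p = 0.0304, adjusted p = 1.00). It was highest in LPS 6 (12.2 FPKM) and LPS 2 (7.97 FPKM), both from animals 9 months old. LPS 5, from an animal 11 months old, came next with 7.00 FPKM.

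The rows whose log2(FPKM + 1) followed each gene most closely are given with Pearson's r, as a description over libraries that share depth and tissue. For Egfr over the 12 libraries they included E230015J15Rik (0.97) and Fhdc1 (0.90). E230015J15Rik is listed at the same locus as Egfr, at 0.537 to 6.10 FPKM in LPS and 2.204 to 3.22 FPKM in WAT, and whether the counting told the strands apart is stated neither by the labels nor by the table. Over the 8 tumours alone, Gm26513 and Cacna1h (0.98 and 0.96) came next to it. For Erbb2, Gcfc2 (0.95) and Nploc4 (0.90) led over 12 libraries and again over the 8 tumours (0.99 and 0.97), while for Erbb3 Abca9 led over 12 (0.88) and Zfp593 over 8 (0.96).

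For Met over the 12 libraries the closest rows were Gm9581 (0.98), Arhgef37 (0.97) and Hp (0.97), and over the 8 tumours Prdx1 (0.96), E030030I06Rik (0.95) and Tal1 (0.94). Hgf was closest to Psap (0.94), Siglec1 (0.92) and Abhd12 (0.91) over the 12 libraries, and to Naaa, Nmt2 and Kbtbd11 (0.97 each) over the 8 tumours. Siglec1 is a macrophage lectin and Psap and Naaa are lysosomal. Hbegf was closest to Cd276 (0.95), Lrrc32 (0.94) and Lima1 (0.94) over the 12 libraries, and to Pomp (0.96), Pcdh15 (0.94) and Col6a4 (0.93) over the 8 tumours. For Axl the best matches were weaker over 12 libraries, with Gm9967 at 0.86, and Gm25777 led over the 8 tumours at 0.93. High values of r are easily found with so few points and so many rows to choose from.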

How the data were processed

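Per the labels, ribosomal RNA was removed from total RNA of frozen tissue, and the libraries were stranded. The authors deposited 1 table of FPKM values per gene locus and library. Cuffdiff 2.2.1, Cufflinks 2.2.1, TopHat2 2.1.0, Trimmomatic and Bowtie2 were used on GRCm38, per the submitters' processing notes, which state no roles; any further scaling is not described. The table gives no fragment totals, so no counting interval is given. Of the rows, 828 join several gene names, and genes in them were left out of lists. A listed 0 can be a failed estimate.

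Libraries were grouped by the labels. limma 3.58.1 (R 4.3.3) was fitted to log2(FPKM + 1) over all 12 libraries without a covariate, with trend and robust empirical Bayes, for rows of at least 1 FPKM in at least 4 libraries. Log2 differences on this scale understate the change of genes near 1 FPKM. Genes under the filter had an exact permutation test. The age slope used the 8 LPS libraries and the same settings. The fits were tested on simulated data. Litters and processing days are not named, so p-values measure the spread between these samples only. Coordinates are the table's loci counted from 1, on GRCm38, and promoter windows come from RefSeq.

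Replicate numbers occur in both groups but were not used as pairs: same-numbered libraries deviated together with r of -0.02 to 0.09, below 0.1. No 2 libraries held identical values. Alternatives were other pseudocounts, filters and scalings, plain empirical Bayes, array quality weights, a replicate block and leaving out each library, and, chosen after seeing the data, leaving out WAT 1 and WAT 4. The 10 genes, the 7 pathway lists and the 9 marker lists were chosen with earlier results of these data known. Named genes were the 10, from each pathway list the 2 called genes with the largest difference each way and the most abundant one not called, and the 3 closest rows by Pearson's r; neighbouring rows, Tgfa and Egf were added after their values were seen. Not every gene so chosen is reported here.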

Additional observations from a re-analysis of the deposited data

Results flagged for a closer look

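Within each group of 8 LPS or 4 WAT libraries, Dixon's test at 95% asked whether the highest or lowest library stood apart from the rest. It covered the genes named above, the ratio of Met to Hgf and the share of Egfr among the 4 receptors. It marked 15 of 74 groups, where chance marks about 1 in 20. None of the values is explained here.

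Among the receptors, Met in LPS 5 (3.27 FPKM, next tumour 1.55 FPKM) stood above the other tumours, and Erbb3 in LPS 3 (0.200 FPKM, next tumour 1.37 FPKM) stood below them. Erbb4 stood high in LPS 5 (0.0334 FPKM) and in WAT 4 (0.735 FPKM), and the ratio of Met to Hgf was low in WAT 4 (2.43, next 9.10). Among the ligands, Areg stood high in LPS 6 (0.478 FPKM) and in WAT 3 (0.294 FPKM, the others listed at 0) and Nrg1 in LPS 5 (0.224 FPKM), while Btc was low in WAT 1 (1.21 FPKM, next 1.98 FPKM). Among the genes around the receptors, Errfi1 in LPS 4 (456 FPKM, next tumour 182 FPKM), Junb in LPS 6 (296 FPKM, next 47.0 FPKM), Timp3 in LPS 7 (983 FPKM, next 442 FPKM) and Itga6 in LPS 2 (75.5 FPKM, next 42.9 FPKM) stood above the other tumours. In fat, Pik3r1 stood high in WAT 1 (96.4 FPKM) and Plxnb2 in WAT 2 (18.7 FPKM).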

How the results depend on the processing

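Met kept its direction and its call under all 22 alternatives, with adjusted p from 5.52e-07 to 0.000575. Without WAT 1 and WAT 4, 1462 rows were higher, against 2806 in all 12 libraries, and 0 of the 10 genes were higher, since Hbegf lost its call. With no filter on low values 2 of the 10 were lower, Met and Erbb4. Leaving out one library at a time gave 2219 to 3218 rows higher and 3482 to 4057 lower, 1 of the 10 genes higher and 1 lower each time, and 30 to 39 pathway genes higher and 10 to 14 lower. No age slope was called in any setting (0 and 0). With quantile normalization the median over all rows was 0.10, against -0.05 as deposited, and 4082 rows were higher and 3459 lower, against 2806 and 4007.

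Signs turned only among values that were not called. After quantile normalization the log2 differences of Erbb3 (0.048), Areg (0.032), Nrg1 (0.021), Pik3r1 (0.010) and Hgf (0.12) turned positive, and without WAT 1 and WAT 4 that of Hgf (0.015). With one library left out, the log2 difference ran from -0.33 to 0.14 for Egfr (positive without LPS 3), from -0.078 to 0.083 for Areg (positive at 0.0021 without LPS 1, LPS 2, LPS 3, LPS 4, LPS 5 or LPS 8, and highest without WAT 3), from -0.056 to 0.0015 for Nrg1 (positive without WAT 2) and from -0.31 to 0.0046 for Hgf (positive without LPS 8 and, at 0.00081, without LPS 2). The age slope ran from -0.59 to 0.12 for Egfr (positive without LPS 2), from -0.067 to 0.14 for Erbb2 (negative without LPS 4 or LPS 6), from -0.054 to 0.48 for Hgf (negative without LPS 2) and from -0.17 to 0.065 for Axl (positive without LPS 4 and, at 0.0037, without LPS 6). Junb was called with array quality weights (adjusted p = 0.0490), and Timp3 with those weights (0.0225) and with the replicate block (0.0475). The causes were not tested.

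The replicate block gave 2664 rows higher and 3375 lower, and Hbegf at 1.02 (limma adjusted p = 0.0313), with 6 shedding genes higher, against 3 without the block. It ended no call among the 10 genes. Of the 4 WAT libraries, 1 correlated best with the LPS library of its own number. With array quality weights 4029 of all 14821 rows were higher and 4642 lower, against 2806 and 4007 without them. Under these weights 13 negative regulators were higher and 2 lower, 10 ERK response genes higher and 1 lower, and 7 shedding genes higher. With quantile normalization 13, 10 and 5 of these lists were higher, against 9, 7 and 3 as deposited. Over all rows that normalization gave 4082 higher, against 2806. In simulated data for LPS minus WAT with 14821 genes, 56% of changes of 1 and 90% to 98% of changes of 2 log2 units were recovered. Whether these rates hold for the measured libraries, where 46.0% of rows were called, was not tested. Areg, Nrg1 and, in LPS, Erbb4 lie mostly near the value of a few fragments. In WAT, Erbb4 lay higher, at 0.126 to 0.735 FPKM. There 1 fragment of a transcript of 2000 bases was worth an estimated 0.0188 to 0.0370 FPKM.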
